A study of Mus musculus with 4 samples.

Results

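The subcortical maternal complex genes were followed through the transition of mouse germinal vesicle (GV) oocytes from the non-surrounded nucleolus (NSN) to the surrounded nucleolus (SN) configuration. The 7 genes were chosen by symbol as Nlrp5, Ooep, Tle6, Khdc3, Padi6, Zbed3 and Nlrp2. All 7 were found among the 16861 genes listed in each library, and all 7 passed the filter on low values that left 11672 genes for testing. There were 4 libraries in all, 2 per configuration, each prepared by Smart-seq2 from 15 oocytes of 3-week-old female C57BL/6J mice. Oocytes were freed of cumulus cells, stained with a Hoechst DNA dye in medium with milrinone, and sorted by eye under a fluorescence microscope. The dye filled the nucleus of NSN oocytes loosely, and in SN oocytes it encircled the nucleolus. No genotype or drug distinguished the groups, and both were exposed to the stain and to milrinone, which holds oocytes in meiotic arrest. The labels do not tie the 2 libraries of a group to separate animals, so a p-value measures only the spread between these libraries.

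The subcortical maternal complex is a large protein assembly that lies beneath the surface of the oocyte and early embryo. Its transcripts are made during oocyte growth and stored, and the embryo depends on the maternal supply for its first cleavages. NLRP5 (also called MATER), TLE6 and OOEP (FLOPED) form its core, KHDC3 (FILIA) binds to that core, and PADI6 is needed for the fibrous lattices of the oocyte cytoplasm. NLRP2 and ZBED3 were found later as further members. An FPKM value is the number of read pairs on a gene relative to the gene's length and to the total of the library. First strands were primed with oligo(dT), and the paper says that such data mainly cover mRNAs that carry poly(A) tails. An FPKM value therefore gives a share of the captured RNA in a library. Less of a transcript per oocyte cannot be told apart from more of the other transcripts around it, nor from fewer oocytes that hold it. Nor can it be told apart from a lower capture of the same transcript through its poly(A) tail.

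The genes lie apart in the genome (GRCm39). Nlrp5 (ENSMUSG00000015721.19) runs from 23085314 to 23141347 and Nlrp2 (ENSMUSG00000035177.9) from 5301546 to 5354034, both on chromosome 7. Khdc3 (ENSMUSG00000092622.10) spans 73009118 to 73011724 and Ooep (ENSMUSG00000032346.9) spans 78283366 to 78286030 on chromosome 9. Tle6 (ENSMUSG00000034758.13) lies on chromosome 10 from 81426738 to 81436907. Padi6 (ENSMUSG00000040935.13) lies on chromosome 4 from 140454666 to 140469954, and Zbed3 (ENSMUSG00000041995.10) on chromosome 13 from 95460111 to 95474349. The read pairs were counted without regard to strand, so shared exons bear on the values. Of the exonic bases of Khdc3, 38.4% are also exons of Gm20509, a read-through gene on the same strand, and 14.02% of those of Tle6 are exons of Tle2 on the opposite strand. For Nlrp2 the share was 2.99%, with a pseudogene. Exons of Nlrp5, Ooep, Padi6 and Zbed3 are shared with no other annotated gene.

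Oocyte genes are known for E-boxes in their promoters, short sites with the letters CANNTG that the oocyte factor FIGLA and related proteins bind. The promoters below are shown because they allow the members to be compared in that feature, and they hold the 120 bases before the RefSeq start site, 5′ to 3′, on the strand of the gene. Where RefSeq gives a gene several starts, which holds for 3 of the 7 members, the outermost start was taken. Positions are on GRCm38.p6, the build of the RefSeq table, and not on the build of the expression data. They are chr4:140742644-140742763 (minus strand) for Padi6, chr9:78378589-78378708 (minus) for Ooep, chr9:73102278-73102397 (plus) for Khdc3, chr7:23385769-23385888 (plus) for Nlrp5 and chr10:81600901-81601020 (minus) for Tle6. Capitals mark each match to CANNTG, which reads the same on both strands.
Padi6: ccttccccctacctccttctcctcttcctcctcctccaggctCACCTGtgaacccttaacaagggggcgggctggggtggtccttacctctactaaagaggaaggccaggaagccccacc
Ooep: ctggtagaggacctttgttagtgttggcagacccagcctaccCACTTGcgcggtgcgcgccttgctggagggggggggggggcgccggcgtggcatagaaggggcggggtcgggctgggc
Khdc3: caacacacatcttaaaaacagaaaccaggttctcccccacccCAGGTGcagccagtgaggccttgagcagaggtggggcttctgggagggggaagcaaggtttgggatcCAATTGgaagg
Nlrp5: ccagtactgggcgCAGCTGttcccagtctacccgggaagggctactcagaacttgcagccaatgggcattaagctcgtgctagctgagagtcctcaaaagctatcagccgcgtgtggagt
Tle6: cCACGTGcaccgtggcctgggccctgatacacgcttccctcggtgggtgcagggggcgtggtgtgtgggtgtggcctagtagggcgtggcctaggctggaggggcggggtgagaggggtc

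An E-box was found in these 120 bases in 5 of the 7 members, against 40.2% of the same stretch in all 32851 promoter windows of the table. Zbed3 and Nlrp2 had none there and are not printed. In Padi6, Ooep and Khdc3 an E-box begins 78 bases before the start, a position at which 0.484% of all windows hold one. This position was noticed after the sequences were seen, so the share of windows at that position does not measure how unusual the match is. The 3 sites differ in their middle letters, with CACCTG in Padi6, CACTTG in Ooep and CAGGTG in Khdc3. In the whole windows of 300 bases, 6 of the 7 members held an E-box, against 72.3% of all windows. The homeodomain letters TAATTG, searched on both strands and able to overlap an E-box, occurred in 2 of the 7 members (Ooep and Padi6) and in 2628 of the 32851 windows. A match of letters is a description of the sequence and does not show that a factor binds there.

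The members were among the most abundant transcripts of the oocyte, but they covered a wide range of levels. By mean FPKM per gene over the 4 libraries, the order was Zbed3 (5577), Padi6 (3419), Tle6 (1910), Ooep (1704), Nlrp5 (733), Nlrp2 (266) and Khdc3 (109). Zbed3 ranked 4th of 16861 genes in each of the 4 libraries, Padi6 ranked 15th by its mean and Khdc3 611th. In NSN oocytes Tle6 stood above Ooep in both libraries, and in SN oocytes Ooep stood above Tle6 in both. All other neighbours in the order kept their places in all 4 libraries. The read pairs behind a value ranged from 2072 for Khdc3 in NSN replicate 2 to 228713 for Zbed3 in NSN replicate 1. Read pairs copied by PCR do not each stand for a separate molecule, so counting error alone would understate the uncertainty. The lengths used by the authors were recovered from the files, and for 5 of the 7 members they equal that of 1 annotated transcript. With all annotated exons as the length instead, Ooep (1667) moved above Tle6 (1321) in mean FPKM, and no other neighbours changed places. Ooep then stood above Tle6 in all 4 libraries, narrowly so in NSN. The order of Ooep and Tle6, and its switch between NSN and SN, therefore depend on the length used.

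**Figure D1:**
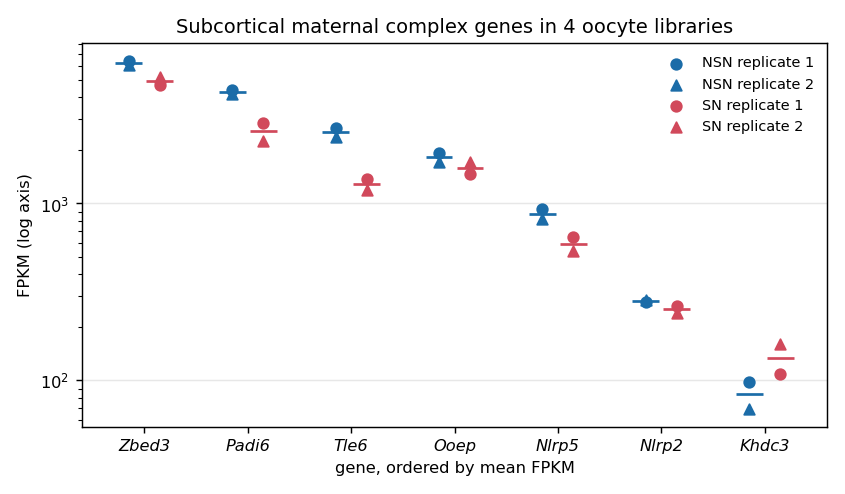
FPKM of each gene on a log axis, with genes ordered by mean FPKM. Circles and triangles are replicates 1 and 2, blue for NSN and red for SN, and bars mark the mean of the 2 libraries. The SN points of Tle6 and Padi6 lie well below the NSN points, those of Ooep nearly touch them, and those of Khdc3 lie above.

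In the comparison of SN with NSN oocytes, Tle6, Padi6 and Nlrp5 fell, and no member rose by the test. A gene was called when limma gave a Benjamini-Hochberg adjusted p under 0.05 over all 11672 genes with a fold change of at least 1.2. The 3 members called were all lower in SN, whereas 7.93% of all genes tested were called, 1.98% lower and 5.95% higher in SN. For 6 of the 7 members each SN value was under each NSN value, a pattern found for 17.8% of all genes tested. For Khdc3 each SN value was above, a pattern found for 44.8%. With 2 libraries against 2, the smallest two-sided p of an exact permutation test is 0.333, and each p here rests on the variance that limma pools across genes.

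Tle6, a co-repressor-like protein of the Groucho family and part of the core, showed the largest change among the members. The NSN libraries (replicates 1 and 2, in this order throughout) held 2685 and 2381 FPKM of Tle6 and the SN libraries 1382 and 1192. Every SN value was far below every NSN value, with means of 2533 ± 215 in NSN and 1287 ± 134 in SN (SD, n = 2). Mean FPKM fell by 49.2%, with a log2 difference of -0.98 (limma, standard error 0.10, adjusted p = 0.036). Since 14.02% of its exonic bases lie in Tle2 on the other strand, read pairs there cannot be assigned by strand. The counting options that the authors state do not include one that keeps read pairs shared by several genes. The part of this stretch in the change was not tested.

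Nlrp5, the NLR-family scaffold of the core, had 935 and 818 FPKM in NSN, against 643 and 538 in SN. The groups did not overlap, and the gap between them was wider than the difference within either. The means were 877 ± 82.3 and 590 ± 74.2 (SD, n = 2). Mean FPKM fell by 32.7%, with a log2 difference of -0.57 (limma, standard error 0.11, adjusted p = 0.041).

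Ooep, the KH-domain protein of the core, had 1927 and 1715 FPKM in NSN, against 1462 and 1713 in SN. SN replicate 2 reached the level of NSN replicate 2, so the groups were separated by almost nothing. On the log2 scale SN differed by -0.20 (standard error 0.10, 95% interval -0.44 to 0.04) and did not pass the test (limma adjusted p = 0.22). The interval holds no change as well as a fall, so Ooep cannot be said to have stayed level. The value was -0.09 without SN replicate 1, -0.12 without NSN replicate 1 and -0.31 without SN replicate 2.

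Within the core, the FPKM ratios of the transcripts differed between the configurations, described here with no test. A ratio of 2 genes within a library does not depend on how the library is scaled. The linear ratio of Ooep to Tle6 FPKM was 0.718 and 0.720 in NSN against 1.06 and 1.44 in SN. The difference of the log2 ratio was 0.78 (SN minus NSN), and the SN replicates differed from each other far more than the NSN replicates. For Nlrp5 to Tle6 the ratio was 0.348 and 0.344 in NSN and 0.465 and 0.451 in SN, tight within each group, with a log2 difference of 0.40. Nlrp5 to Ooep was 0.485 and 0.477 in NSN, and 0.439 and 0.314 in SN. Over the 21 pairs of members, the log2 ratios of the groups did not overlap in 18, as in 57.7% of all pairs of the 11672 genes tested. Each gene enters several pairs, so the pairs are not independent, and every pair with Tle6, Padi6 or Khdc3 was among the 18. The 3 that overlapped were Nlrp5 to Zbed3, Ooep to Nlrp2 and Zbed3 to Nlrp2.

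Padi6, a relative of the enzymes that turn arginine into citrulline, had 4387 and 4170 FPKM in NSN and 2854 and 2267 in SN replicates. Both SN values were low, and SN replicate 2 was the lower of them. The means were 4278 ± 153 and 2560 ± 416 (SD, n = 2). Mean FPKM fell by 40.1%, with a log2 difference of -0.75 (limma, standard error 0.11, adjusted p = 0.036). Padi6 moved from rank 11 in both NSN libraries to ranks 16 and 29 in the SN libraries.

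Zbed3, a zinc finger protein known to bind Axin, had 6399 and 6031 FPKM in NSN and 4680 and 5199 in SN replicates. The SN values were lower in both libraries, and the groups did not overlap. The log2 fold change of -0.33 (standard error 0.08, 95% interval -0.52 to -0.14) was not called (limma, adjusted p = 0.053). As the most abundant member, Zbed3 carried 38.3% and 39.0% of the members' summed FPKM in NSN and 41.1% and 46.0% in SN.

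Nlrp2, an NLR-family protein related to NLRP5, had 278 and 284 FPKM in NSN and 265 and 239 in SN replicates. These values lay close together, with SN slightly below NSN in both libraries. On the log2 scale SN differed by -0.16 (standard error 0.08, 95% interval -0.35 to 0.03, limma adjusted p = 0.22), and without SN replicate 2 by -0.09.

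Khdc3, a KH-domain protein that joins the core, differed from the others in direction. It had 98.5 and 68.8 FPKM in NSN, and 109 and 160 in SN replicates. Both SN values were higher, but SN replicate 1 was nearer to NSN replicate 1 than to SN replicate 2. The log2 fold change was 0.68 (standard error 0.22, 95% interval 0.15 to 1.21) and did not pass the test (limma adjusted p = 0.096). It was 0.40 without SN replicate 2 and 0.42 without NSN replicate 2. Only 61.6% of its exonic bases are free of Gm20509, and the counting options that the authors state do not include one that keeps read pairs shared by several genes. The level of Khdc3 is therefore uncertain, and the part of the shared exons in its change was not tested.

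**Figure D2:**
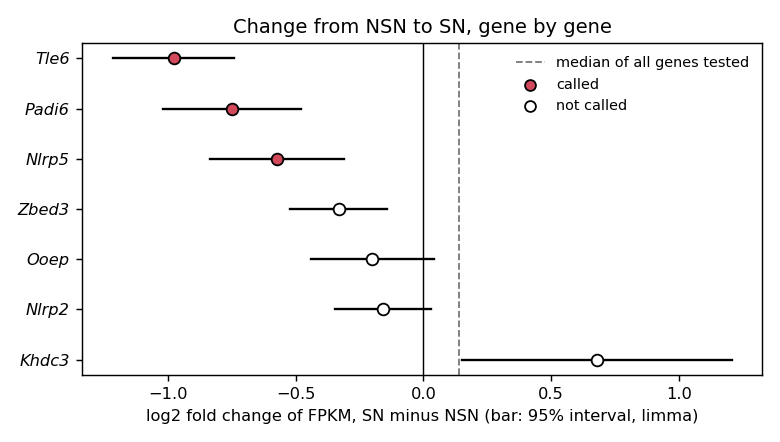
Log2 fold change of FPKM, SN minus NSN, for each gene, with 95% intervals from limma. Filled points are the 3 genes called, and the dashed line is the median of all genes tested, 0.14. Tle6, Padi6 and Nlrp5 lie farthest to the left, and Khdc3 alone lies to the right of 0.

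The calls depended on single libraries and on the model. Without NSN replicate 1, none of the 7 members and none of the 11672 genes was called, while 2278 genes had an unadjusted p under 0.05. The log2 differences were then -0.89 for Tle6, -0.71 for Padi6 and -0.48 for Nlrp5 (limma adjusted p of 0.068, 0.093 and 0.130). Without SN replicate 2 the call of Nlrp5 was lost at -0.44 (adjusted p = 0.094). No member was called after a correction for gene length, where the limma adjusted p of Tle6 and Padi6 was 0.050. The log2 fold changes were then -1.03 and -0.80. Among the members, only Tle6, Padi6 and Nlrp5 had replicate 1 above replicate 2 in both groups. With the replicate number as a block, their standard errors fell, from 0.099 to 0.076, 0.113 to 0.091 and 0.110 to 0.078. Those of all other members rose. Whether libraries of the same number were paired was not tested.

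The median log2 fold change of all genes tested was 0.14, and relative to that median the changes were -1.12 for Tle6, -0.89 for Padi6, -0.71 for Nlrp5, -0.47 for Zbed3, -0.34 for Ooep, -0.29 for Nlrp2 and 0.54 for Khdc3. When the libraries were rescaled by their median gene, the same 3 members were called. Of all calls, 75.1% were higher in SN as deposited, but 30.4% after that rescaling, 32.2% after quantile normalization and 42.3% with the top 100 genes left out of the totals. The share of read pairs on the top 100 genes was 39.8% and 38.7% in NSN against 35.4% and 35.3% in SN, and its part in the members' fall was not tested. Among the 125 genes at or above 500 FPKM on average, 21 (16.8%) were called lower and 1 (0.8%) higher, and their median log2 fold change was -0.05. The 5 members in that class were Zbed3, Padi6, Tle6, Ooep and Nlrp5, and 3 of them were called lower. Among the 1126 genes from 50 to 500 FPKM, which hold Nlrp2 and Khdc3, 5.51% were called lower and 8.44% higher.

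**Figure D3:**
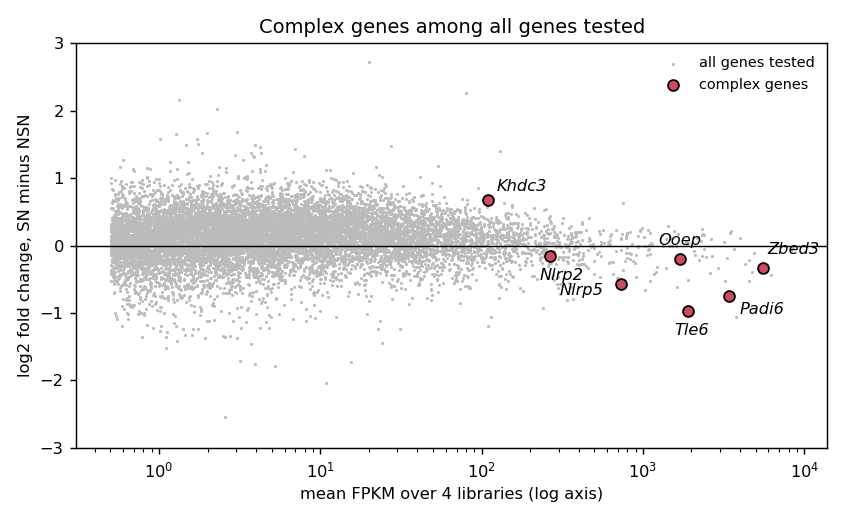
Mean FPKM over the 4 libraries on a log axis against the log2 fold change, SN minus NSN, for the 11672 genes tested (grey) and the complex genes (red). Tle6 and Padi6 lie near the lower edge of the abundant genes, while Khdc3 lies above most genes of its level.

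Together the members held a smaller part of the library in SN. Their FPKM summed to 16709 and 15467 in NSN, against 11395 and 11308 in SN. The sums were high in both NSN libraries and nearly equal in the SN libraries, with means of 16088 ± 878 and 11352 ± 61.1 (SD, n = 2). The mean sum fell by 29.4%. As a percent of all listed FPKM they made up 3.68% and 3.42% in NSN and 2.57% and 2.53% in SN. Of all read pairs, they took 3.76% and 3.48% in NSN and 2.57% and 2.51% in SN. The share of Tle6 within the sum went from 16.1% and 15.4% to 12.1% and 10.5%, and that of Ooep from 11.5% and 11.1% to 12.8% and 15.1%.

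**Figure D4:**
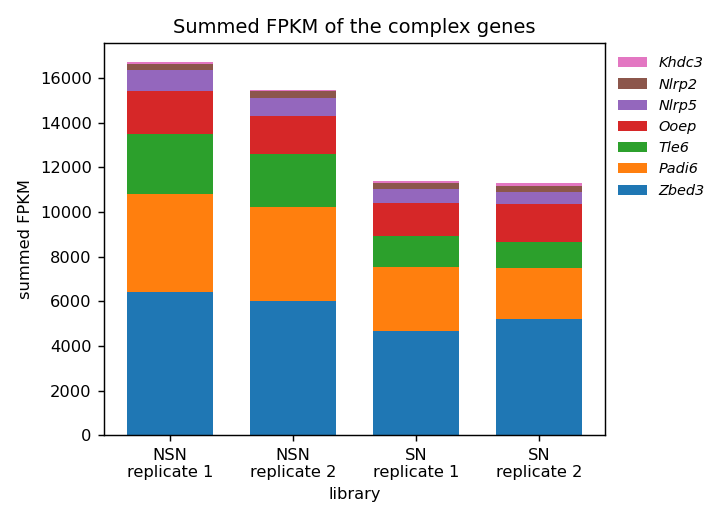
Summed FPKM of the complex genes in each library, with each gene's part stacked by colour. The NSN bars reach 16709 and 15467, the SN bars 11395 and 11308, and Zbed3, Padi6, Tle6 and Ooep make up most of each bar.

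The genes with the most similar pattern over the 4 libraries were found by the distance between log2(FPKM + 0.5) values centred on the mean of each gene, among genes with at least a 10th of the member's mean FPKM. For Tle6 the nearest were Gdf9, which encodes a growth factor that the oocyte secretes, Nobox, an oocyte transcription factor, and Mtmr14 (distances 0.111, 0.163 and 0.172). Nobox had 346 and 285 FPKM in NSN and 165 and 163 in SN. For Nlrp5 they were Nlrp14, a related NLR gene, Tubg2 and Ccdc115 (0.0595 to 0.0794). Nlrp14 fell with 5610 and 5075 FPKM in NSN and 3983 and 3422 in SN, and it was also among the nearest to Padi6, with Bmp15 and Oas1c (0.204 to 0.254). For Zbed3 the nearest were Tmem14c, Med27 and Birc5 (0.0279 to 0.0979), and for Ooep they were Elobl, Ftdc1 and Gm11545 (0.0522 to 0.0653). Dnaja2, Srp54c and Ifit1bl2 were nearest to Nlrp2 (0.0166 to 0.0274). For Khdc3 the nearest were Rps29, Tfpt and Gm47871 (0.199 to 0.279). The search covered from 111 genes for Zbed3 to 3692 for Khdc3, and with 4 libraries many genes share any pattern.

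The other genes around the complex were read against the 1.98% of all genes called lower and the 5.95% called higher. Of the 10 other oocyte Nlrp genes tested, 2 were called lower and none higher, and the median log2 fold change was -0.05 against -0.33 for the complex genes. Nlrp14 differed by -0.53 on the log2 scale (limma, standard error 0.10, adjusted p = 0.039), and Nlrp4c by -0.70 (standard error 0.12, adjusted p = 0.037) at a much lower level of 11.3 FPKM in NSN. Nlrp4f and Nlrp9c were not called, with log2 fold changes of -0.10 and 0.20 (adjusted p = 0.44 and 0.11). Among 10 tested relatives of the other members, only Dppa5a, a small KH-domain gene, was called, from 244 to 178 FPKM (log2 fold change -0.46, limma adjusted p = 0.036). Khdc1b, with 1360.2 FPKM in NSN and 1038 in SN, was not called (adjusted p = 0.053), nor was Khdc1a at 6.69 and 7.62 FPKM (adjusted p = 0.46). The Tle and Padi relatives that were listed had mean values of at most 3.06 FPKM, far below Tle6 and Padi6. Tle2, Tle3 and Padi3 were not analysed here.

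Of 16 tested genes for proteins linked to the complex, 1 was called higher and none lower, against 7.93% of all genes called in either direction. Ywhah, which encodes a 14-3-3 protein, rose from 27.4 to 43.0 FPKM (log2 fold change 0.65, limma adjusted p = 0.036), and this call was lost when the libraries were rescaled by their median gene. Cfl1, which encodes the actin-severing protein cofilin, had 1107 FPKM in NSN and 1071 in SN (adjusted p = 0.73), and Ywhae, another 14-3-3 gene, had 751 and 828 (adjusted p = 0.20).

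Of 26 other maternal effect genes tested, which the embryo also draws from the egg, 2 were called lower and none higher, again against 7.93% called in either direction, with a median log2 fold change of 0.13 against 0.14 for all genes. The 2 were Npm2, a histone chaperone, at -0.34 (limma adjusted p = 0.048), and Uchl1, a deubiquitinase, at -0.49 (adjusted p = 0.037). Npm2 was not called after median scaling, at -0.49 (adjusted p = 0.060), or with a replicate block, at -0.34 (adjusted p = 0.067). Btg4, needed for the decay of maternal mRNA, and Zfp57, which guards imprints, were not called, with log2 fold changes of 0.19 and -0.01 (adjusted p = 0.17 and 0.92). Of 7 oocyte transcription factors tested, only Nobox was called, at -0.93 (standard error 0.10, limma adjusted p = 0.036). Figla, which encodes an E-box-binding factor, had 20.5 FPKM in NSN and 18.4 in SN (adjusted p = 0.33), and Lhx8 had 143 and 117 (adjusted p = 0.069).

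**Figure D5:**
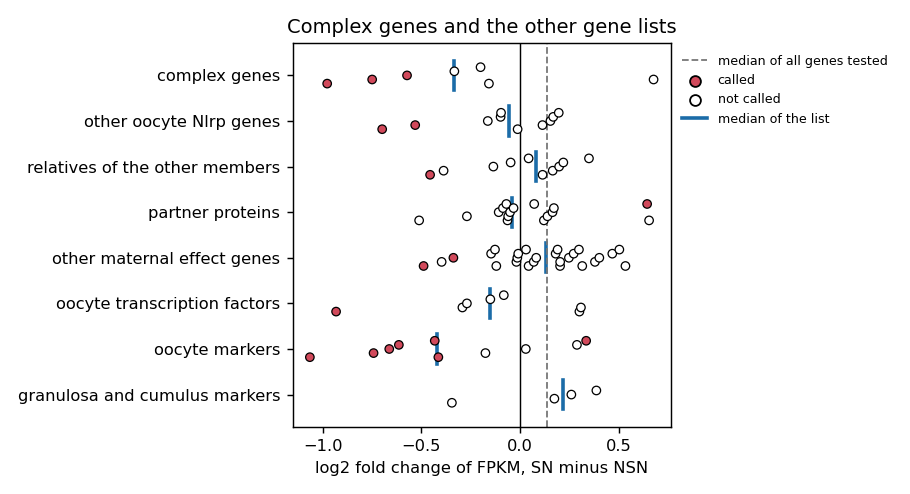
Log2 fold change of FPKM, SN minus NSN, for each tested gene of the complex and of the other lists. Filled points are genes called, blue bars are list medians and the dashed line is the median of all genes. The median is lowest for the oocyte markers and for the complex genes, at -0.42 and -0.33.

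The labelled cell type was checked against markers. All 10 oocyte markers were listed, and their FPKM summed to 21442 and 20412 in NSN and 14924 and 14264 in SN. Of these, 6 were called lower, namely Gdf9, Ddx4, Zp1, Bmp15, Zp3 and Zp2, and Oosp2 was called higher, a call that median scaling and the replicate block removed. Of all genes tested, 1.98% were called lower and 5.95% higher. Among genes at or above 500 FPKM on average, 16.8% were called lower and 0.8% higher. That class includes Gdf9, Zp1, Bmp15, Zp3, Zp2 and the uncalled Oosp1. Of all calls in the lists beside the complex, 1 oocyte marker's alone was made without SN replicate 2, and none without NSN replicate 1. Dazl, Oosp1 and Kit were not called (limma adjusted p = 0.19, 0.83 and 0.10). Kit went the other way from most, with 16.0 and 17.2 FPKM in NSN and 20.1 and 20.7 in SN. Of 15 markers of granulosa and cumulus cells, 11 were listed and 4 passed the filter, none was called, and the most abundant, Cyp19a1, had a mean of 7.62 FPKM. Their summed FPKM was 9.87 and 14.2 in NSN and 14.5 and 14.4 in SN, higher in SN by the mean, while the complex genes were lower, and the part of these cells in the result was not tested. Foxl2, Amh, Amhr2 and Inhbb were not analysed here. Library totals ranged from 17069772 to 17998361 read pairs, so depth was similar in both groups.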

How the data were processed

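Mouse GV oocyte RNA was measured by Smart-seq2. The authors trimmed reads with Trim Galore 0.6.10, used HISAT2 for alignment (GRCm39) and featureCounts for exon counting, and deposited FPKM. No read counts were used directly. Library totals were recovered from 5 mitochondrial tRNA genes, and the lengths and whole read pairs of 99.8% of genes followed (tolerance 0.0001 read pairs). SN was compared with NSN on log2(FPKM + 0.5) with limma 3.58.1 in R 4.3.3 (trended variance, two-sided p, Benjamini-Hochberg over all genes averaging 0.5 FPKM or more). Fold changes on this scale understate low genes. The same steps were also run on simulated counts without added shifts in library composition, which do not test how the calls depend on scaling. The members and gene lists were chosen with earlier results of these data known. Genes named beside the members are, for each list, up to 4 called with the largest change and the 2 most abundant not called. Other markers were named after their values were seen. Positions and shared exons came from a GENCODE release later than the authors', and promoters from RefSeq on GRCm38.p6, in which all 7 members matched. Other values were computed with Python 3.11.15. Alternatives covered pseudocount, filter, scaling, variance trend, replicate block, gene length, read pairs and each library left out.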

Additional observations from a re-analysis of the deposited data

How the results depend on the processing

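Of the 7 members, 3 were called with the settings used (Tle6, Padi6 and Nlrp5). The same 3 were called with a pseudocount of 0.1 or 1, after median scaling, when the top 100 genes were left out of the totals, and with the replicate block, in which 3 members were called. Quantile normalization left 1, Tle6, and set the change of Zbed3 to 0 because its rank was 4 in all 4 libraries. The count was 0 when no filter was set, when the variance had no trend, after a correction for gene length (alone, or combined with the replicate block), and at a fold change of at least 2. Apart from the last, these limma fits called 0 of all genes, and an unadjusted p under 0.05 was reached by 4092, 3449, 3130 and 2768 genes in that order. It was 5, with Khdc3 and Zbed3 added, with the filter raised to 5 FPKM, with an adjusted p under 0.1 and with voom weights for the recovered counts. Leaving out 1 library at a time gave 0 to 3 members, where the lone library of a group is assumed to vary like the other group. The log2 change of Khdc3 then ranged from 0.40 to 0.96, that of Ooep from -0.31 to -0.09 and that of Nlrp2 from -0.23 to -0.09. No member changed sign under any of these settings. The cause of the other moves was not tested.

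Across genes, the difference between NSN replicates and that between SN replicates correlated at -0.07, which does not describe the called members. The block changed no member's call while all calls went from 926 to 422. All calls were 257 after median scaling, of which 30.4% were higher in SN, 230 after quantile normalization (32.2%), 248 without the 100 most abundant genes (42.3%), 1496 with the filter at 5 FPKM (78.1%), 2313 with voom, 2370 at an adjusted p under 0.1 and 76 at a fold change of at least 2 (46.1%), against 75.1% of the 926. Without 1 library they were 0 (NSN replicate 1), 1685 (NSN replicate 2), 148 (SN replicate 1) and 11 (SN replicate 2).

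After median scaling, 0 partner protein genes were called in place of 1, 1 other maternal effect gene in place of 2 (also 1 with the replicate block) and 4 oocyte markers in place of 7. With each library left out, the calls ranged from 0 to 2 for other oocyte Nlrp genes, relatives and partner proteins, 0 to 5 for other maternal effect genes, 0 to 1 for transcription factors and 0 to 5 for oocyte markers. Uncalled genes near 0 changed sign: median scaling gave a log2 change of -0.0149 for Ywhae and -0.125 for Oosp1, and with each library left out Cfl1 ranged from -0.154 to 0.0533, Zfp57 from -0.0514 to 0.0247 and Oosp1 from -0.0663 to 0.126.

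The log2 ratio of the summed FPKM, -0.50, was -0.66 after median scaling and -0.59 without the top 100 genes in the totals, and -0.56 to -0.45 with each library left out. Leaving out a library moved the log2 ratio of Tle6 to Ooep between -0.998 and -0.558, that of Nlrp5 to Ooep between -0.62 and -0.13, and that of Nlrp5 to Tle6 between 0.38 and 0.43. Each member had at least 2072 read pairs in every library.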
